A study of Pinus pinaster with 24 samples.

Results

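A set of 150 transcripts of the maritime pine root tip had lower levels in the root meristem than in each of the 3 other areas sampled, which were the root cap, developing cortex and developing vascular tissue. All 51211 transcripts of the table were ranked by the lowest of their cap, cortex and vascular mean levels over their meristem mean level, as log2 of the ratio after adding 0.5 to each mean. The first 150 were taken, which is 0.293% of the table. Because the area means chose these members, their area levels are described here and not tested. The area means pooled both irrigation solutions, so a transcript could also enter through high levels with nitrate alone. The difference between solutions was fitted over the whole table, and its p-values stand for single transcripts, while counts and medians over the members are partly tied to the choice and are given as a description.

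The seedlings were Pinus pinaster of the Segura-Alcaraz provenance, 1 month old, and all of them spent 3 days without a nitrogen source. The control seedlings were then watered with 80 mL of potassium chloride (KCl) at 3 mM and the others with the same volume of potassium nitrate at 3 mM, and root tips of 5 to 6 mm were taken 2 h later. Frozen tips were cut into sections of 30 µm, and the 4 areas were isolated by laser microdissection according to position, so the areas correspond to the named tissues only approximately. RNA with an integrity number above 7 was amplified as cDNA and sequenced from both ends at 150 bp. Each of the 8 groups of 1 area and 1 solution had 3 libraries, numbered by experiment, which gave 24 libraries and 6 libraries per area over both solutions. Neither the number of seedlings behind a library nor the independence of the numbered experiments is stated in the labels, so a p-value here covers library-to-library spread alone, which may be technical. The labelled areas could not be checked against marker genes, because no source used here links transcript IDs to gene names.

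In a root tip, the meristem holds small dividing cells that supply the other tissues. Cells displaced from it enlarge and differentiate, forward into the cap that covers the tip, and backward into cortex and vascular tissue. A transcript low in the meristem and present in the other 3 areas is thus shared by tissues of different function. In roots, nitrate is both a nutrient and a signal that alters transcript levels within hours. No gene function, sequence or length was assigned to a member here, and since values are not divided by length, levels are compared between areas and solutions, not between transcripts.

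Each library held between 45262154 and 51517525 recovered reads, and a single read was worth 0.0171 to 0.02468 of the deposited scaled values, which the authors named CPM. A floor of 3 reads was at most 0.074 CPM and covers counting error only. Libraries with the same solution and experiment number deviated together in all 36 pairs of areas, so they are treated as 6 root-tip sets, although the labels do not state such sets. KCl set 1 stood apart for the members and for lists of transcripts that peak in 1 area, and several results are also given without it. In bulk tissue, fewer cells of a type and less RNA per cell cannot be told apart.

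Members were above the middle of all transcripts in the 3 other areas and low in the meristem, though mostly above the floor of 3 reads. The median over the 150 members of the area mean was 10.02 CPM in the cap, 8.15 CPM in the cortex, 6.75 CPM in the vascular tissue and 0.469 CPM in the meristem. Over all transcripts of the table these medians were 4.15, 3.88, 3.73 and 3.79 CPM. The median member thus stood at percentile 70.3 of all transcripts in the cap, 67.7 in the cortex, 64.7 in the vascular tissue and 11.0 in the meristem. The range of the area means was 1.80 to 599 CPM in the cap, 1.52 to 1043 CPM in the cortex and 1.43 to 732 CPM in the vascular tissue, but 0 to 27.0 CPM in the meristem.

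**Figure D1:**
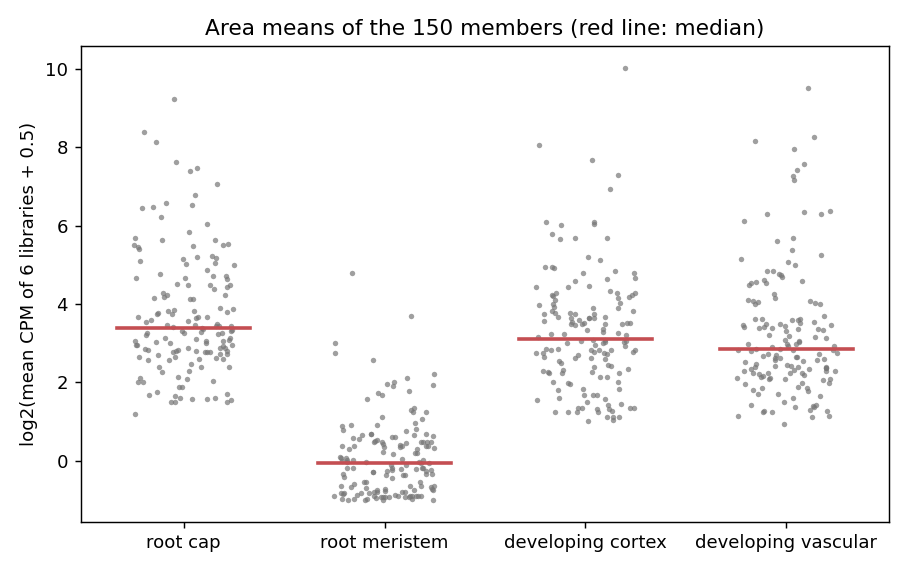
Mean level of each of the 150 members in the 4 areas, as log2(mean CPM of 6 libraries + 0.5), with 1 point per member and a red line at the median. The medians correspond to 10.02 CPM in the cap, 0.469 CPM in the meristem, 8.15 CPM in the cortex and 6.75 CPM in the vascular tissue.

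The log2 ratio that ranked the members was 4.72 for the first, 2.31 for the median and 1.85 for the last. It was above 2 for 128 members, above 3 for 24 and above 4 for 6. The cut lay in a dense part of the ranking. The last member, pp_91919, had means of 10.8 CPM in the cap, 8.95 CPM in the cortex, 3.96 CPM in the vascular tissue and 0.737 CPM in the meristem, and a log2 ratio of 1.851. The first transcript outside, pp_192098, had 13.1, 2.70, 3.04 and 0.386 CPM in these areas and a log2 ratio of 1.850.

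Low meristem levels were seldom a complete absence of reads. The meristem mean was under 0.1 CPM for 38 members, under 0.5 CPM for 80 and under 1 CPM for 113, while 16 members exceeded 2 CPM there. All 6 meristem libraries held reads of 103 members. At the other end, 4 members had 0 reads in all 6 meristem libraries, and 7 had at most 3 reads in total there. Against a floor of 3 reads per library, the lowest of the other area means was at least 79.4-fold higher for pp_92437 and at least 71.7-fold higher for pp_92436, members with adjacent IDs that were singled out after their values were seen. The other two members without meristem reads, pp_178928 and pp_194390, were at least 44.3-fold and at least 25.5-fold higher.

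The separation of the meristem from each area held in most libraries. Every meristem library lay below every cap library for 131 members, below every cortex library for 128 and below every vascular library for 112. For 99 members every meristem library lay below all 18 libraries of the other areas. Among all 51044 transcripts tested, these shares were 26.4%, 12.4%, 6.94% and 1.13%. Since the rule used the same levels, these counts only describe how well the area means represent single libraries.

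The first-ranked member, pp_66604, had a meristem mean of 6.23 CPM ± 7.36 (SD, n = 6). Its meristem libraries held 7.40, 0.847 and 0.844 CPM with KCl and 20.4, 4.05 and 3.83 CPM with nitrate. Its cap libraries held 110, 68.4 and 92.9 CPM with KCl and 157, 142 and 489.95 CPM with nitrate. The meristem values were thus spread widely, with 1 nitrate library highest, and the 6 cap libraries all lay above them. In the cortex pp_66604 reached 297, 618 and 1020 CPM with KCl and 2121, 836 and 1368 CPM with nitrate. Its vascular libraries reached 162, 519.5 and 776 CPM with KCl and 767, 1070.4 and 1094 CPM with nitrate. This member had the highest mean of the set in both areas, at 1043 CPM ± 639.9 for the cortex and 732 CPM ± 352 for the vascular area (SD, n = 6 each). KCl 1 was its lowest library in each of them.

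The second-ranked member, pp_136341, had 1.10 CPM ± 0.892 in the meristem. Its means were 73.3 CPM ± 45.3 in the cap, 67.8 CPM ± 39.4 in the cortex and 37.5 CPM ± 16.1 in the vascular area (SD, n = 6 each). The lowest library of each of these 3 areas was again KCl 1, with 7.53, 11.0 and 17.7 CPM, and even these lay above the highest meristem library at 2.34 CPM. The member with the highest cap mean, pp_166621, had 599 CPM ± 112 there, 155 CPM ± 48.9 in the cortex, 171 CPM ± 122 in the vascular tissue and 27.0 CPM ± 18.3 in the meristem (SD, n = 6 each). It is 1 of 5 members with a meristem mean above 5 CPM, which shows that membership rests on a ratio and not on a low level as such.

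Outside the meristem, members were not uniform. The highest of the 3 other area means was in the cap for 77 members (51.3%), in the cortex for 38 (25.3%) and in the vascular area for 35 (23.3%). Over all transcripts these shares were 42.4%, 17.1% and 40.4%. The vascular tissue was the lowest of the 3 areas for 65 members, the cortex for 48 and the cap for 37. The most frequent order was cap highest and vascular lowest, with 46 members, and the least frequent was vascular highest and cortex lowest, with 17.

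The ratio of the highest to the lowest of the 3 other area means had a median of 3.31 and ran from 1.03 to 90.5. It was under 2 for 45 members and above 10 for 20. Among the 77 members highest in the cap its median was 3.71, with 14 above 10. Among the 38 members highest in the cortex the median was 1.90, with 1 above 10, and among the 35 highest in the vascular tissue it was 3.42, with 5 above 10. Members highest in the cortex were thus the most even across the 3 areas by this median.

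The 2 largest ratios belonged to transcripts with high cap levels. The mean of pp_91957 was 195 CPM in the cap, 2.17 CPM in the cortex, 2.16 CPM in the vascular tissue and 0.0347 CPM in the meristem, a ratio of 90.5. The mean of pp_128742 was 168 CPM in the cap, 54.3 CPM in the cortex, 1.87 CPM in the vascular tissue and 0.0813 CPM in the meristem, a ratio of 89.8. Its vascular mean rested on 1 library, nitrate 1 with 8.30 CPM, while the others held 0.153 to 1.06 CPM. The ratio of pp_128742 and its place in the list thus depend on that library. For these members the meristem was the lowest area of a steep series rather than the one low area among like ones. At the other extreme, pp_130053 had 5.56 CPM in the cap, 5.68 CPM in the cortex, 5.41 CPM in the vascular tissue and 0.335 CPM in the meristem, a ratio of 1.05. The ratio of pp_64698 was 1.03, and its levels depended on the solution, as described with the nitrate results.

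**Figure D2:**
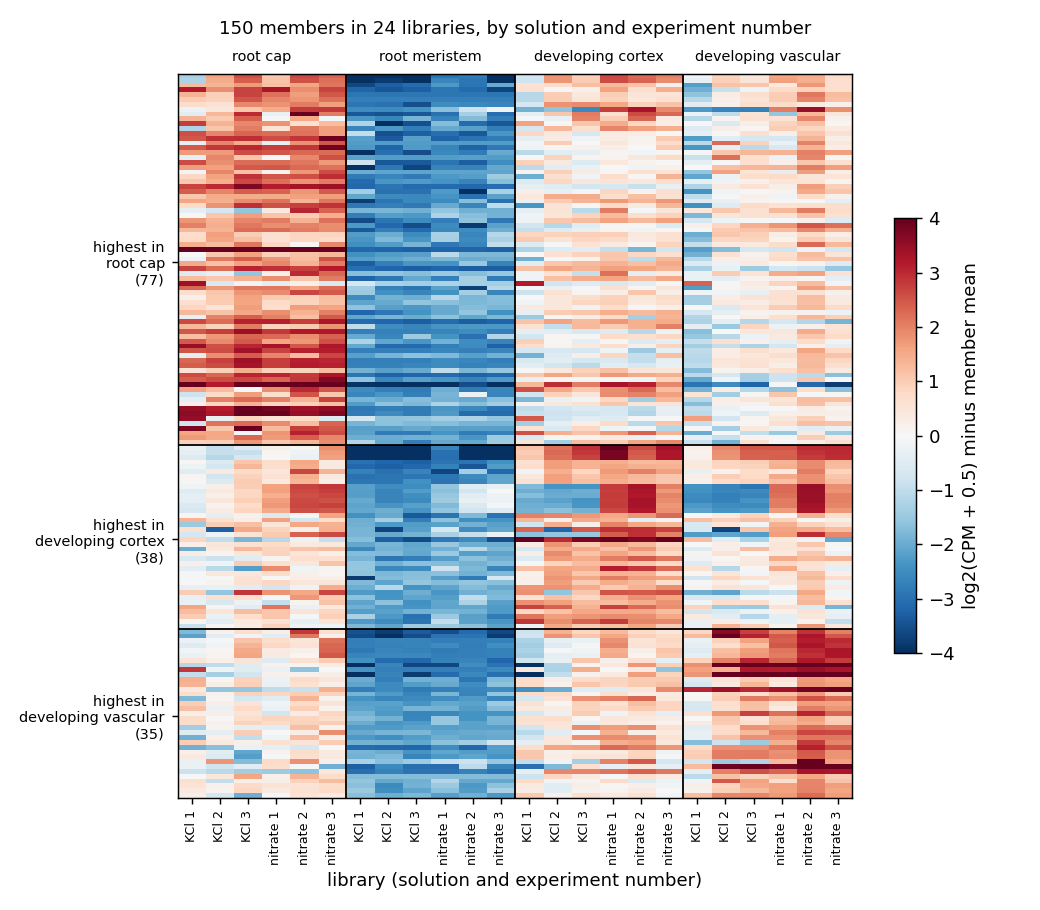
Level of each of the 150 members in the 24 libraries, as log2(CPM + 0.5) minus the mean of that member over all libraries, with members in rows and libraries in columns grouped by area and ordered by solution and experiment number. The 6 meristem columns are low for nearly all members, and the other areas differ between members, with 77 members highest in the cap, 38 highest in the cortex and 35 highest in the vascular tissue.

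Many members carried consecutive ID numbers. The 150 members formed 98 blocks, of which 70 were single IDs and 28 were runs of 2 or more consecutive IDs that held 80 members. The longest runs had 6 members, from pp_64696 to pp_64701 and from pp_215225 to pp_215230. In all 28 runs the members shared the same highest area. Deviations from the area means over the 24 libraries correlated within runs, with a median over runs of 0.947 for the lowest pair and a minimum of 0.590, which is given as a description because these values share libraries and depth. What consecutive IDs stand for is not given in the sources used here, so members of a run may be parts or variants of 1 gene or share reads, and counts of members are not counts of independent genes.

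A list low in 1 area was drawn in the same way for each other area. The first, median and last log2 ratio were 6.79, 4.15 and 3.91 for the list low in the cap, 8.01, 4.57 and 3.61 for the vascular list, and 3.89, 1.69 and 1.37 for the cortex list. For the meristem they were 4.72, 2.31 and 1.85. A log2 ratio above 1 was reached by 632 transcripts in the meristem, 9634 in the cap, 2082 in the vascular tissue and 302 in the cortex. By this measure low levels in the meristem alone were rarer and shallower than low levels in the cap or the vascular tissue alone, and more common than in the cortex alone. The 4 members without a read in their low area had no counterpart in the other 3 lists, where this count was 0. That the 4 lists shared no member follows from the rule, since only 1 area can have the lowest mean.

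The members' summed level, as a share of the CPM of a library, was low in both solutions in the meristem, at 0.0148% ± 0.00524 with KCl and 0.0218% ± 0.00599 with nitrate (SD, n = 3 each). In the cap it was 0.352% ± 0.0785 with KCl and 0.443% ± 0.0624 with nitrate. In the cortex it was 0.271% ± 0.0704 and 0.462% ± 0.0866, and in the vascular tissue 0.284% ± 0.148 and 0.569% ± 0.142 (SD, n = 3 each). The mean with nitrate was higher in each area. These sums weight abundant members most.

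The median member level per library weights members equally. It was 2.36, 4.87 and 5.71 CPM with KCl and 7.11, 12.8 and 7.79 CPM with nitrate in the vascular tissue. In the cortex it was 4.23, 6.28 and 7.22 CPM with KCl and 10.5, 10.9 and 8.81 CPM with nitrate. The solutions did not overlap in either area, and KCl 1 was the lowest library in both. In the cap the values were 7.38, 7.60 and 10.4 CPM with KCl and 9.45, 13.5 and 14.3 CPM with nitrate, which overlapped. In the meristem they were 0.297, 0.192 and 0.216 CPM with KCl and 0.501, 0.489 and 0.504 CPM with nitrate, which did not overlap.

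Deviations from the area means showed how the root-tip sets contributed. The median deviation of the members in KCl set 1 was -0.37 in the cap, -1.22 in the vascular tissue and -0.69 in the cortex on the log2(CPM + 0.5) scale. The other KCl sets lay between -0.39 and 0.22 in these 3 areas, and the 3 nitrate sets between 0.07 and 0.80. KCl set 1 was therefore the lowest in the cortex and the vascular tissue, but not in the cap, where KCl set 2 was lower. In the vascular library of this set, the 150 transcripts that peak in the meristem held 0.156% of the CPM, against 0.0441% to 0.0801% in the other vascular libraries. The 150 that peak in the vascular tissue held 0.146% there, against 0.510% to 1.02% in the others. In the cortex library of the set, the meristem list held 0.156%, against 0.0814% to 0.0906% in the other cortex libraries. These lists come from the same libraries, and their part in the members' levels was not tested.

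**Figure D3:**
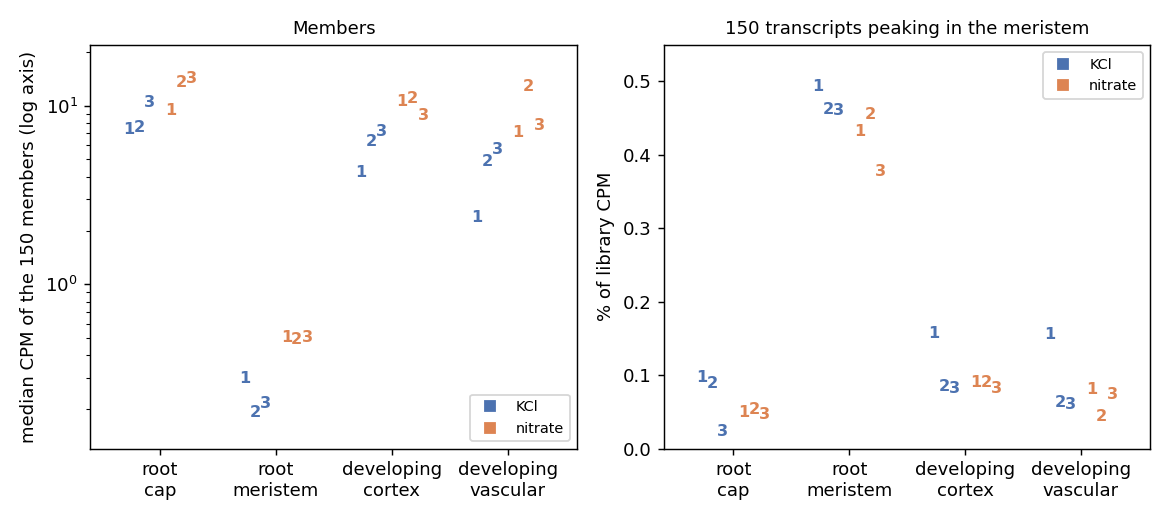
Left, median level of the 150 members in each library, in CPM on a log axis, by area and solution. Right, share of the CPM of each library held by the 150 transcripts that peak in the meristem, in percent. With nitrate the vascular medians are 7.11, 12.8 and 7.79 CPM, above the KCl values of 2.36, 4.87 and 5.71 CPM.

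Nitrate and KCl libraries were then compared within each area, to ask whether nitrate supply altered member levels after 2 h. The median over the 150 members of nitrate minus KCl, on the log2(CPM + 0.5) scale, was 0.87 in the vascular tissue, 0.39 in the cap, 0.39 in the cortex and 0.13 in the meristem. Over all 51044 transcripts tested the medians were 0.02, -0.01, 0.00 and -0.01. The difference was above 0 for 139 members in the vascular tissue, 122 in the cap, 119 in the cortex and 103 in the meristem. Without KCl set 1 the medians were 0.53 in the vascular tissue, 0.23 in the cap, 0.28 in the cortex and 0.20 in the meristem, and 124, 104, 110 and 117 members lay above 0. In the vascular and cap libraries, the median was thus larger by over 1.5 times with that set than without it. The added 0.5 CPM compresses differences at the low meristem levels. The median log2 change fitted by edgeR was 0.54 in the meristem, 0.37 in the cap, 0.83 in the vascular tissue and 0.39 in the cortex, so the meristem came second on that scale and last on the log2(CPM + 0.5) scale. With a pseudocount of 0.1 the meristem median was 0.28.

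Most of these differences were small against the spread between libraries. Every nitrate library lay above every KCl library for 54 members in the vascular tissue, where 11.8% of all transcripts did so. The count was 37 in the cortex, where the share of all transcripts was 6.54%, 20 in the cap, where it was 4.70%, and 24 in the meristem, where it was 4.71%. The reverse held for 1 member in the vascular tissue and 1 in the meristem, and for 0 in the cap and 0 in the cortex, where the shares of all transcripts were 7.75%, 5.11%, 3.62% and 6.11%. Members of a run and libraries of a root-tip set move together, so these counts are not of independent events.

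The same comparison in the lists that peak in 1 area is given beside this. In the vascular tissue the vascular peak list had a median of 1.06, or 0.34 without KCl set 1. In the cortex the cortex peak list had 0.42, or 0.08 without that set. In the cap the cap peak list had 0.46, or 0.31 without that set, and in the meristem the meristem peak list had -0.18, or -0.18 without it. With all libraries, the medians of these lists thus also lay away from 0. Without KCl set 1, 54.7% of the cortex list lay above 0 in the cortex, against 50.7% of all transcripts. The lists come from the same libraries and were not tested, nor was their part in the members' differences.

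**Figure D4:**
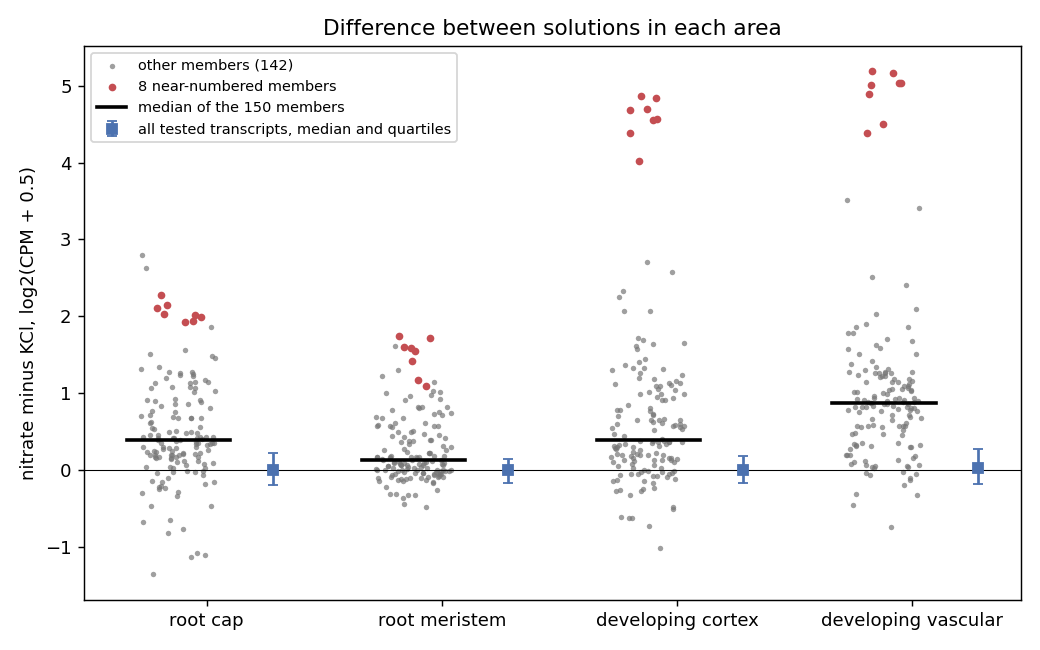
Nitrate minus KCl in each area on the log2(CPM + 0.5) scale, for the 150 members, with 1 point per member, a black line at their median, and blue squares with bars for the median and quartiles of all tested transcripts. The 8 near-numbered members lie highest in the cortex and the vascular tissue, at 4.02 to 4.87 and 4.39 to 5.19, and the median of the members is 0.87 in the vascular tissue.

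Few members passed the test, and every call was higher with nitrate. With limma and an adjusted p below 0.05 over all transcripts, 10 members rose in the vascular tissue, where 0.38% of all transcripts were called higher. In the cortex 8 rose, where the share was 0.161%, and in the cap 8, where it was 0.694%. In the meristem 0 members were called by limma, where 0.0372% of all transcripts were called higher, and 13 members had an unadjusted p below 0.05, as did 4.45% of all transcripts. By limma 0 members were called lower in any area, where 0.214% of all transcripts were called lower in the cap, 0.0411% in the meristem, 0.0353% in the vascular tissue and 0.047% in the cortex. By edgeR 0 members were called lower too, where these shares were 0.157%, 0.0176%, 0.0274% and 0.0235%. The count test of edgeR on the recovered reads called 9 members higher in the vascular tissue (0.125% of all transcripts), 8 in the cortex (0.0764%), 0 in the cap (0.0744%) and 0 in the meristem (0.0157%), where 28 members and 4.77% of all transcripts had an unadjusted p below 0.05. DESeq2 on the same reads called 8 members higher in the cap (0.668% of all transcripts) and 10 in the meristem (0.161%), 8 of these 10 being the near-numbered members described next. The cap and meristem calls thus depended on the tool.

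Over the mean of the cap, cortex and vascular effects, limma called 20 members, all higher, where 1.52% of all transcripts were called higher, and edgeR called 13 (0.919%). Over this mean 0 members were called lower, where the share of all transcripts was 0.574% by limma and 0.762% by edgeR. The libraries of a root-tip set are not independent, so these p-values are too small. With 1 mean per set, limma called 8 members (0.0451% of all transcripts), with adjusted p of 0.0125 to 0.0218. Those 8 entered the list through the nitrate libraries, as shown by their levels in each solution, so their calls are tied to how they were chosen. They are the members from pp_64693 to pp_64705, and also make up all 8 cortex calls, 8 of the 10 vascular calls and 7 of the 8 cap calls. Of the 113 members that the rule also took from the KCl libraries alone, limma called 0 in the cap, 0 in the cortex, 1 in the vascular tissue and 6 over the mean, so most calls lay among the 37 that it did not take. The other 12 members called over the mean had log2 changes of 0.92 to 2.20, and 4 of them carried IDs between pp_118426 and pp_118433.

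The near-numbered members are all 8 IDs of the table in their interval, and they were singled out after their values were seen. Correlations between them over the 24 libraries were 0.987 to 0.998, so they count as 1 observation rather than 8. With KCl their group means were under 0.5 CPM outside the cap, and with nitrate they were above 10 CPM in the cap, the cortex and the vascular tissue. In the cortex their group means ran from 0.187 to 0.405 CPM with KCl and from 12.8 to 25.4 CPM with nitrate, ratios of 43.6 to 101.5. In the vascular tissue they ran from 0.0144 to 0.0992 CPM with KCl, which is 2 to 14 reads over 3 libraries, and from 11.1 to 23.5 CPM with nitrate. In the cap they already had 1.82 to 4.50 CPM with KCl and reached 10.2 to 20.1 CPM with nitrate, ratios of 4.08 to 5.59. In the meristem the means were 0.0868 to 0.213 CPM with KCl and 0.888 to 1.80 CPM with nitrate, ratios of 7.15 to 16.4. Over 3 meristem libraries these members had 14 to 34 reads with KCl and 148 to 298 reads with nitrate.

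The libraries of pp_64700 show this pattern. Its vascular libraries had 0.0844, 0 and 0.0362 CPM with KCl and 14.9, 36.1 and 13.0 CPM with nitrate. In the cortex it had 0.528, 0.340 and 0.347 CPM with KCl and 22.5, 30.6 and 12.8 CPM with nitrate. Every nitrate library lay far above every KCl library in both areas, and nitrate 2 was the highest. In the cap pp_64700 had 2.12, 3.35 and 5.49 CPM with KCl and 8.49, 19.3 and 20.8 CPM with nitrate. In the meristem it had 0.223, 0.0403 and 0.108 CPM with KCl and 0.675, 1.92 and 2.43 CPM with nitrate. The solutions did not overlap in these areas either, and the difference in the meristem was not called by limma or edgeR but was called by DESeq2, with an adjusted p of 9.32e-06.

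Of the others named by the smallest p, pp_64699 had 0.591, 0.226 and 0.225 CPM in the cortex with KCl and 25.2, 36.5 and 14.5 CPM with nitrate. Its vascular libraries had 0.211, 0.0866 and 0 CPM with KCl and 17.1, 40.6 and 12.8 CPM with nitrate. The cortex values of pp_64705 were 0.295, 0.226 and 0.122 CPM with KCl and 21.4, 31.6 and 11.5 CPM with nitrate. Both showed the same order of libraries, with nitrate 2 highest and nitrate 3 lowest among the nitrate libraries. In the cap pp_64696 rose from 1.82 CPM ± 1.03 to 10.2 CPM ± 5.20 and pp_64701 from 2.81 CPM ± 1.42 to 15.3 CPM ± 5.36 (SD, n = 3 each).

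The fitted changes of the 8 members were 4.39 to 5.19 in the vascular tissue, with limma adjusted p of 2.08e-06 to 8.95e-06 and edgeR adjusted p of 2.85e-05 to 0.000571. In the cortex they were 4.02 to 4.87 on the same log2(CPM + 0.5) scale, with limma adjusted p of 4.77e-06 to 1.85e-05 and edgeR adjusted p of 0.000766 to 0.00464. In the cap they were 1.92 to 2.28, with limma adjusted p of 0.00959 to 0.0697, which called 7, and edgeR adjusted p of 0.0702 to 0.278. Without KCl set 1 limma called 0 of the 8 in the cap. In the meristem they were 1.09 to 1.74, with limma calling 0 of the 8. There the edgeR changes were 2.81 to 3.99 with 0 called, against 2.03 to 2.48 in the cap, and DESeq2 called all 8. The test for a difference between the cap, cortex and vascular effects called 0 of the 8 by limma, 2 by edgeR, both with an adjusted p of 0.0491, and all 8 by DESeq2, which called 0.249% of all transcripts. By limma the fitted changes were smaller in the cap than in the cortex and the vascular tissue. By edgeR they were 5.43 to 6.65 in the cortex and 7.88 to 9.42 in the vascular tissue, above the cap values. Whether this difference between areas was called thus rests on the tool.

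These 8 were members because of the nitrate libraries. With the KCl libraries alone their log2 ratio was -0.28 to -0.06, and they were the only members at or under 0. With the nitrate libraries alone it was 2.89 to 3.25. Applied to KCl libraries alone, the rule took again 113 of the 150 members and 0 of these 8, and with nitrate libraries alone it took 125 of the 150 and all 8. The 2 single-solution lists shared 91 of the members, and 3 members were in neither. Over all members the median log2 ratio was 2.13 with KCl and 2.47 with nitrate, so the low meristem level was present in both solutions for most of them.

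**Figure D5:**
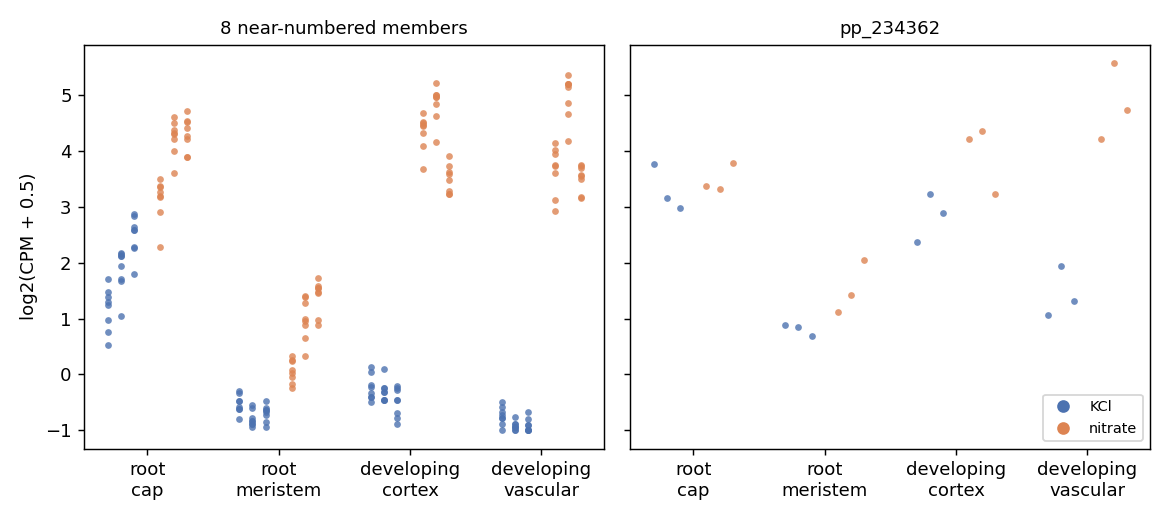
Level of the 8 near-numbered members (left) and of pp_234362 (right) in each library, as log2(CPM + 0.5), by area and solution, with 1 column of points per experiment number. The 8 members lie near the floor with KCl in the cortex and vascular tissue and at 11.1 to 25.4 CPM on average with nitrate, and pp_234362 rises most in the vascular tissue.

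By limma, the single member whose nitrate effect differed between the cap, cortex and vascular tissue was pp_234362, with an adjusted p of 0.0242. Of all transcripts, 0.0725% were called. The rule took pp_234362 from neither the KCl nor the nitrate libraries alone, where its log2 ratios were 0.68 and 1.93. Its place in the list thus depended on the nitrate libraries, and its nitrate tests are tied to how it was chosen. In the vascular tissue pp_234362 had 1.58, 3.36 and 1.97 CPM with KCl and 18.2, 47.2 and 26.2 CPM with nitrate. In the cortex it had 4.66, 8.92 and 6.90 CPM with KCl and 18.2, 20.0 and 8.83 CPM with nitrate. In the cap it had 13.1, 8.42 and 7.43 CPM with KCl and 9.84, 9.49 and 13.3 CPM with nitrate. The solutions were far apart in the vascular tissue and overlapped in the cortex and the cap. The log2 change was 3.41 ± 0.36 (SE) in the vascular tissue, with a limma adjusted p of 2.51e-05 and an edgeR adjusted p of 0.000237, and was 1.10 in the cortex and 0.19 in the cap. The difference between areas was not called by edgeR, with an adjusted p of 0.0785, nor by limma without KCl set 1, with an adjusted p of 0.125. The 2 members that edgeR called for a difference between areas were of the near-numbered 8, where 0.0176% of all transcripts were called.

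Of the remaining calls in single areas, pp_118430 had 2.26, 5.00 and 7.45 CPM in the vascular tissue with KCl and 19.3, 33.5 and 25.9 CPM with nitrate. Its log2 change was 2.40, with a limma adjusted p of 0.0411 and an edgeR adjusted p of 0.267. In the cap pp_135418 had 0.963, 0.691 and 0.142 CPM with KCl and 1.97, 15.1 and 9.33 CPM with nitrate, a log2 change of 2.80 with a limma adjusted p of 0.0239 and an edgeR adjusted p of 0.125. Both rose by limma, with solutions that did not overlap, and neither passed with edgeR. The rule also took pp_118430 from the KCl libraries alone, but not pp_135418, so the call of pp_135418 is partly tied to the choice.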

How the data were processed

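The submitters' processing notes list bcl2fastq and BWA without versions. How reads were counted, against which reference, and how values were scaled is not given in the sources used here. Deposited values are a scaled count signal per transcript that the authors named CPM. Column totals of 786966 to 1173829 differ, so the authors scaled by more than library size. The tests were planned for plain CPM and kept, since both need a log scale. In all 24 columns 100% of the values were whole multiples of 1 read within 0.02 reads, and these reads, 45262154 to 51517525 per library, went into edgeR.

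The main test was limma 3.58.1 in R 4.3.3 on log2(CPM + 0.5) with a variance trend, 1 model of 8 group means over 24 libraries, and Benjamini-Hochberg adjustment over the 51044 transcripts that reached 1 CPM in 3 or more libraries. The filter left out 167 transcripts and none of the 150 members. A fold on this scale understates changes of low transcripts. The quasi-likelihood test of edgeR 4.0.16 called 38 transcripts higher with nitrate in the cap, 8 in the meristem, 64 in the vascular tissue and 39 in the cortex, and DESeq2 1.42.0 was an alternative. The procedure was run on simulated counts with 200 transcripts changed in the cortex alone, and the outcome is not given here. These counts had no correlation within root-tip sets, so they cannot speak for the tests over several areas.

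Deviations from group means gave correlations of -0.04 to 0.30 between KCl and nitrate libraries of the same number, 6 of 12 over 0.1. Whether numbers pair the solutions in part was not tested, and the main fit has no block by number. Within a solution, all 36 pairs of areas with the same number correlated at 0.279 to 0.694.

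Members and lists were chosen with earlier results of these data known. Named were the first 2 members, the transcripts at the cut, the highest area means, the largest and smallest ratios, the smallest p-values of each comparison (at most 2 per direction), and the ends of the longest runs. Other IDs were chosen after their values were seen. Alternatives left out each library in turn, changed the pseudocount, the scaling, the fit and the tool, or left out KCl set 1, which was chosen after seeing the data, as was the split of members by whether the KCl libraries alone select them.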

Additional observations from a re-analysis of the deposited data

Results flagged for a closer look

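In 64 groups of 6 libraries, the highest and the lowest library were checked for a gap to the rest by Dixon's test. A group was 1 named transcript, or 1 library summary over all members, in 1 area with both solutions together. In 5 groups there was such a library, where chance gives about 1 in 20. Several named transcripts are near-numbered members, so the groups are not independent. The level of pp_66604 was 489.95 CPM in the cap library nitrate 3 and 20.398 CPM in the meristem library nitrate 1, each far above the other 5 of its area. The level of pp_128742 was 0.26872 CPM in the meristem library nitrate 2 and 8.3 CPM in the vascular library nitrate 1. The level of pp_64705 was 34.807 CPM in the vascular library nitrate 2. All 5 were nitrate libraries, and the 6 libraries of a group pool both solutions.

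The nitrate effect of pp_234362 differed between the cap, the cortex and the vascular tissue by the limma F test, with an adjusted p of 0.0242. Leaving out 1 library at a time gave adjusted p of 0.0142 to 0.0804. The place of pp_234362 in the list depended on the nitrate libraries, so this test is tied to how it was chosen.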

How the results depend on the processing

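Counts of called members moved with the fit, and so did the shares of all transcripts called, which stand in brackets. These shares are for calls higher with nitrate, except in the test of a difference between areas. For the fits without 1 library no shares are given, so those ranges cannot be set against the calls over all transcripts. In the cap, the 8 calls (0.694%) became 0 with edgeR (0.0744%) and 0 with the cap libraries alone, where 0 of all transcripts were called. They became 2 with a pseudocount of 0.1 (0.245%), 2 without the meristem libraries (0.31%) and 2 without KCl set 1 (0.666%). Without 1 library at a time they were 0 (without nitrate 3) to 11. In the meristem, the 0 calls became 2 with a pseudocount of 0.1 (0.0313% of all transcripts called higher) and 10 with DESeq2 (0.161%), and stayed 0 without any 1 library. In the vascular tissue the 10 calls (0.38%) became 0 with its libraries alone (0.0157%), and were 9 to 13 without 1 library. In the cortex they were 8 in every leave-one-out fit. For the mean of 3 areas, 20 calls (1.52%) became 13 with edgeR (0.919%) and 13 without the meristem libraries (1.1%). They became 11 with the root-tip set as a random effect (0.513%) and 8 with set means (0.0451%). Without 1 library at a time they ran from 13 to 38. The test of a difference between areas, with 1 call (0.0725%), gave 2 with edgeR (0.0176%) and 9 with DESeq2 (0.249%). It gave 0 without the meristem libraries (0.0176%), 5 with the set as a random effect (0.253%) and 0 without KCl set 1 (0.106%). Without 1 library at a time it gave 0 to 4.

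Whether experiment numbers pair the solutions in part was not tested, so a fit with numbers as blocks is given beside the main one. A replicate block by experiment number gave 36 calls for the mean (3.10% of all transcripts, 1.52% without it). In single areas it gave 11 in the cap (0.913%, 0.694% without it) and 15 in the vascular tissue (0.533%, 0.38% without it). It gave 0 in the meristem (0.0725%), 8 in the cortex (0.225%) and 1 for the difference between areas (0.0784%).

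The rule took again 113 members with a pseudocount of 0.1, 128 with 1, 145 with median-of-ratios scaling, 129 with medians of libraries, and 118 (without meristem KCl 1) to 148 without 1 library. The median log2 ratio was 2.22 to 2.41 and the count highest in the cap 69 to 86 without 1 library. The causes were not tested. A value under 0.074 CPM is under 3 reads and was not resolved at this depth.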

Other observations

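Transcripts next to the members in ID number shared part of the pattern. The table holds 101 such transcripts that are not members. Their median log2 ratio was 0.09, against -0.53 over all transcripts, and 57 of them (56.4%) lay above 0, against 19.4% of all transcripts. A ratio above 1 was found for 33 (32.7%), against 1.23% of all.

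On the log2(CPM + 0.5) scale, members varied more between libraries of 1 group than all transcripts did, except in the meristem with KCl. The KCl values below include KCl set 1, the lowest set in the cortex and the vascular tissue, and are not given without it. The median over members of the SD of log2(CPM + 0.5) was 0.77 in vascular KCl libraries, 0.61 in cortex KCl libraries and 0.61 in cap KCl libraries, against 0.23, 0.25 and 0.36 over all transcripts. With nitrate it was 0.45, 0.37 and 0.53 in these areas, against 0.22, 0.20 and 0.30. In the meristem it was 0.25 with KCl and 0.38 with nitrate, against 0.25 and 0.24, at levels where the added 0.5 CPM compresses differences. As SD over mean without that addition, the meristem median over members was 64.7% with KCl and 64.1% with nitrate. Over all transcripts, which were at higher levels there, it was 22.8% and 21.8%.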
